A study of Drosophila sechellia with 6 samples.

Results

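The ribosomal RNA (rRNA) entries of a poly(A) RNA-seq experiment in *D. sechellia* are described here, one copy at a time and by rRNA class. They were chosen by name: every entry of the authors' expression table whose gene name starts with 18S, and every entry with the Rfam family name RF00002, which stands for 5.8S rRNA, or RF00001, which stands for 5S rRNA. The rule used no measured value. It gave 139 of the 17275 entries in the table, of which 6 were 18S, 103 were 5.8S and 30 were 5S copies. The file itself has no name for 28S rRNA or 2S rRNA, so neither is described.

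The OA group was made up of 3 libraries of adult females kept for 24 hr on food with 0.7% octanoic acid (OA), a toxic fatty acid of the fruit that *D. sechellia* lives on. The control group was made up of 3 libraries of females kept for the same time on control food. Each library came from 10 whole flies of the single strain 14021-0428.25, and the flies of both groups were collected at 0 to 3 d by the treatment protocol or were 1 to 4 d old by the sample labels. The authors deposited 1 FPKM value (a count of fragments scaled to transcript length and to the mapped reads of a library) per entry and group, so every value below is the authors' group value without an SD, and no difference between the groups could be tested against the spread between libraries.

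The ribosome is built on rRNA. In *Drosophila*, RNA polymerase I transcribes one long precursor from tandem repeats of ribosomal DNA, and this precursor is cut into 18S rRNA, the RNA core of the small subunit, and into 5.8S, 2S and 28S rRNA of the large subunit. 5S rRNA, a further RNA of the large subunit, is transcribed by RNA polymerase III from a separate tandem cluster. Mature rRNA makes up most of the RNA of a cell but carries no long poly(A) tail, so that libraries made by poly(A) selection hold only a remainder of it. The levels below are levels of this remainder and not of the rRNA content of the flies. The size of the remainder also depends on how completely poly(A) selection removed rRNA from each library. Whether this removal differed between the groups was not tested, because only group values are available. In RNA from whole flies, fewer cells of a type and less RNA per cell cannot be told apart either.

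All 3 rRNA classes were lower in OA than in control. The summed level of the 6 18S copies in OA was 10.5% of that in control. The 103 5.8S copies summed to 5647 FPKM in OA and 110344 FPKM in control, so that OA held 5.12% of the control level. The 30 5S copies summed to 149 FPKM in OA and 4226 FPKM in control, or 3.53% of the control level. As log2 of OA over control, the differences between the sums were -3.26 for 18S, -4.29 for 5.8S and -4.82 for 5S. Together the rRNA entries took 0.483% of all FPKM in the table in OA and 6.87% in control. FPKM weighs short entries heavily. With FPKM multiplied by the genomic span of each entry, the shares were 0.224% in OA and 2.40% in control. This span can be far longer than the transcript, and among snoRNA entries it ran up to 84218 bases. Entries with such spans are weighed too heavily, and shares by transcript length were not computed.

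No copy stood against this direction. Of the 139 copies, 132 had a mean of the group values of at least 1 FPKM, and all 132 were at least 2-fold lower in OA on the scale of log2 of FPKM + 1, a scale that understates the change of low entries. Over the whole table, 4.24% of the 12203 entries with such a mean were at least 2-fold lower in OA. Of the 132 copies, 111 were above 0 in both groups. The remaining 21 were listed at 0 in OA and passed the filter through control alone, so their call followed from their control values. The 7 copies below this mean were listed at 0 in both groups and are accounted for below. No copy was at least 2-fold higher, against 2.58% of all entries. At least 4-fold lower were 131 copies, against 2.31% of all entries. At least 8-fold lower were 6 18S, 93 5.8S and 27 5S copies, against 1.68% of all entries. These 126 rRNA copies made up 61.5% of the 205 entries in the table that were at least 8-fold lower. They include the copies listed at 0 in OA alone, 1 of 5.8S and 20 of 5S, whose size of change was set by control and the pseudocount. Copies of 1 rRNA are as a rule nearly identical in sequence, which was not checked for these entries, and can share reads. The copies are therefore not taken as independent of each other, and their number is not a number of observations.

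**Figure D1:**
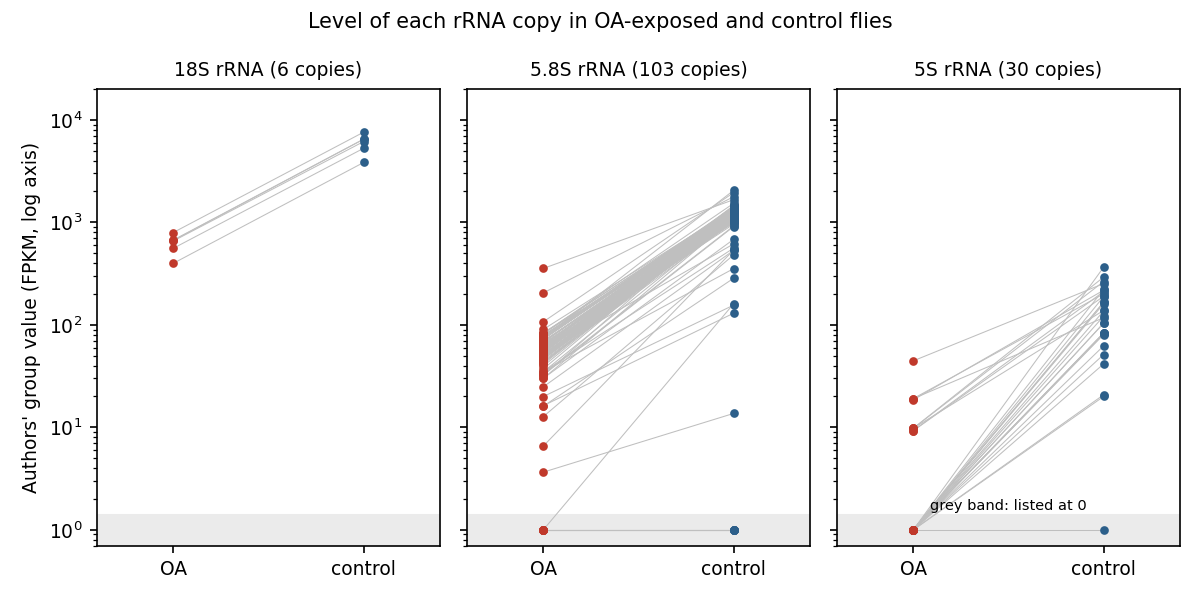
Authors' group value of every rRNA copy in FPKM on a log axis, OA left of control, with a grey line joining the values of a copy and a grey band for values listed at 0. The 6 lines of 18S rRNA run in parallel between 398 and 796 FPKM in OA and between 3837 and 7581 FPKM in control, while 20 of the 5S copies above 0 in control are listed at 0 in OA.

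The 18S copies were the most abundant rRNA entries and the most alike in their difference between the groups. 18SrRNA:GM27730 (scaffold 1920, 3347 to 5276) was the highest, at 796 FPKM in OA and 7581 FPKM in control. 18SrRNA:GM27731 (scaffold 2973, 934 to 2864) was at 672 FPKM in OA and 6478 FPKM in control. 18SrRNA:GM27733 (scaffold 3538, 208 to 2198) was at 666 FPKM in OA and 6474 FPKM in control. The second and the third highest copies thus lay within a few FPKM of each other in both groups.

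18SrRNA:GM27732 (scaffold 3469, 659 to 2585) was at 658 FPKM in OA and 6137 FPKM in control. 18SrRNA:GM27734 (scaffold 3754, 169 to 2165) was at 558 FPKM in OA and 5277 FPKM in control. 18SrRNA:GM27729 (scaffold 204, 13060 to 15056) was the lowest, at 398 FPKM in OA and 3837 FPKM in control. The order of the 6 copies was the same in both groups. The highest copy was 2.0 times the lowest in OA and 1.98 times in control, whereas the OA level of a copy as a percentage of its control level ranged only between 10.3% and 10.7%. The difference therefore varied far less between copies than the level did, with log2 of OA over control between -3.28 and -3.22. All 6 annotations are of similar length, between 1927 and 1997 bases, and Cuffdiff gave all 6 the status OK, which marks entries with enough reads for its test.

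The 18S copies ranked from 350 to 616 among all entries by FPKM in OA and from 39 to 123 in control. The 50 highest entries of the table included no rRNA copy in OA and 3 18S copies in control. Among the 500 highest there were 5 rRNA copies in OA, all of 18S rRNA, and 91 in control, of which 85 were 5.8S copies.

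The 5.8S copies were spread over 102 scaffolds, nearly always 1 copy to a scaffold, and 5.8S was the class with the largest summed FPKM. Its sum was 1.51 times that of 18S rRNA in OA and 3.08 times in control. Both RNAs come from the same precursor, but FPKM of RNAs this short depends strongly on the authors' length correction, so these ratios describe the table and not the amounts of the RNAs. The gap between them follows from the sums, since 5.8S was 19.5-fold lower and 18S was 9.55-fold lower in OA.

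Most 5.8S annotations had 1 of a pair of lengths. Of the 103 copies, 84 spanned 179 or 180 bases, 12 spanned 143 to 178 bases, 3 spanned 88 to 93 bases and 4 spanned 50 bases or fewer. Among the 84 full-length copies, 77 lay between 29.98 and 90.3 FPKM in OA and between 909 and 1462 FPKM in control, and the median of these 77 copies in OA was 4.46% of control. Summed over the full-length copies, OA held 4550 FPKM and control held 96151 FPKM, a difference of -4.40 as log2 of OA over control. No full-length copy in OA reached the lowest full-length copy above 0 in control, which was at 156 FPKM.

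Another 6 full-length copies above 0 were lower than these 77 in control, of which 3 were singled out after their values were seen. FBgn0255190 (scaffold 8843, 53 to 232) was at 6.57 FPKM in OA and 537 FPKM in control, an 81.7-fold difference and the largest among 5.8S copies above 0 in both groups. Its OA value was the lowest above 0 among full-length copies, and how far it rests on few fragments was not tested. FBgn0255189 (scaffold 8816, 903 to 1081) was at 12.7 FPKM in OA and 481 FPKM in control. FBgn0255175 (scaffold 8037, 1336 to 1514) was at 20.0 FPKM in OA and 156 FPKM in control, which at 7.80-fold was the smallest difference among full-length copies. The OA level of single 5.8S entries thus scattered between 1.22% and 12.8% of control at full length, a wider range than for the 18S entries.

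The highest 5.8S values belonged to annotations shorter than those called full-length. In control the highest was FBgn0255161 (scaffold 7301, 1557 to 1719, 163 bases), at 74.8 FPKM in OA and 2050 FPKM in control. It was followed by FBgn0255095 (scaffold 11864, 1056 to 1220, 165 bases), at 107 FPKM in OA and 1948 FPKM in control. Their OA levels were 3.65% and 5.50% of control, close to the median of 4.68% over all 5.8S copies above 0 in both groups. Thus these 2 copies were above the full-length copies in control, while their OA levels as a percentage of control lay within the range of the full-length copies.

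The 2 annotations of 93 bases stood apart in OA. FBgn0255151 (scaffold 6080, 1002 to 1094) was the highest 5.8S copy in OA, at 355 FPKM, against 1663 FPKM in control. FBgn0255145 (scaffold 5312, 1303 to 1395) was at 205 FPKM in OA and 1777 FPKM in control, the next highest control value of the class after the 2 copies above. Their OA levels were 21.4% and 11.5% of control. Together with a copy of 88 bases they made up the 3 copies of 88 to 93 bases, over which the sum in OA was 15.6% of control, against 4.73% over the full-length copies. FBgn0255194 (scaffold 9794, 1305 to 1392), that copy of 88 bases, had the largest change of the class on the scale with the pseudocount, because it was listed at 0 in OA and at 160 FPKM in control. The smallest change was that of FBgn0255171 (scaffold 7643, 110 to 282, 173 bases), the lowest 5.8S copy above 0, at 3.65 FPKM in OA and 13.7 FPKM in control.

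**Figure D2:**
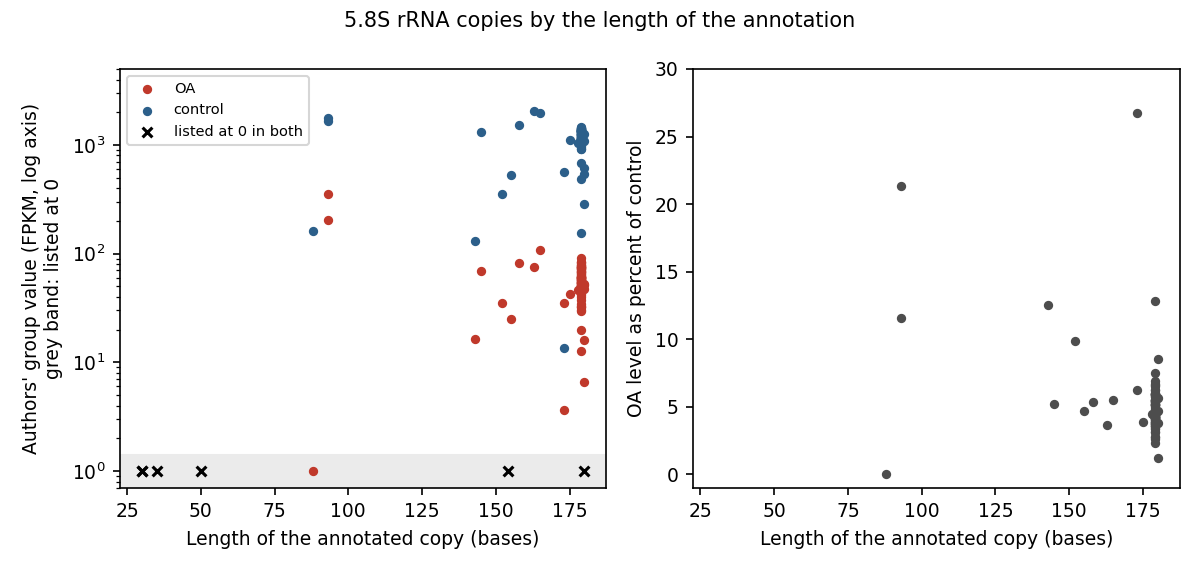
Left, group value of each 5.8S copy in FPKM on a log axis against the length of its annotation in bases, with copies listed at 0 in both groups as crosses. Right, OA level as a percentage of the control level against the same length. Most copies sit at 179 or 180 bases, with a median of 4.46% of control, and the 2 copies of 93 bases lie at 11.5% and 21.4%.

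Cuffdiff gave 96 of the 5.8S copies the status OK and left 7 untested, FBgn0255194 and the 6 that were listed at 0 in both groups. For 4 of these 6 the annotation was 30, 30, 35 or 50 bases long, no longer than a sequenced read of 50 nt. The copy of 50 bases, FBgn0255195, directly follows FBgn0255194 on scaffold 9794, the one scaffold with more than 1 5.8S entry. FBgn0255125 (scaffold 3043, 77 to 230, 154 bases) and FBgn0255137 (scaffold 4149, 1339 to 1518, 180 bases) were also listed at 0 in both groups, although their lengths lie in the range of the copies with high values. An FPKM of 0 may stand for no reads or for an estimate that failed, and which of these holds was not tested.

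The levels of the 5.8S copies in OA followed those in control less closely than for 18S. Over the 96 5.8S copies above 0 in both groups, Spearman's rho between the group values was 0.583, and Pearson's r between their log2 values was 0.772. Over the 83 full-length copies with values they were 0.415 and 0.681. Over the 6 18S copies they were 1 and 0.998. The 5.8S annotations are shorter and their median OA level was 52.9 FPKM, against 662 FPKM for 18S. The part of length and level in the looser relation was not tested. These are descriptions across copies that can share reads, and copies are not replicates.

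5S rRNA was the class nearest to absence in OA. In OA 9 of the 30 copies were above 0, between 9.28 and 44.5 FPKM, and the median over all copies was 0. In control 29 copies were above 0, between 20.0 and 365 FPKM, with a median of 129 FPKM over all copies. Cuffdiff gave 27 copies the status OK and left untested the copy at 0 in both groups and the 2 lowest in control. Of the 29 copies above 0 in control, 20 were listed at 0 in OA, against 2.78% of the 14623 entries in the table that were above 0 in at least 1 group. No 5S copy was above 0 in OA alone, and FBgn0255099 on scaffold 12378 was listed at 0 in both groups.

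The highest 5S copy in control was among those listed at 0 in OA. It was FBgn0255065 (scaffold 1, 13138899 to 13139017), at 365 FPKM in control. FBgn0255103 (scaffold 12544, 700 to 818) was at 9.79 FPKM in OA and 292 FPKM in control. FBgn0255066 (scaffold 1, 13139272 to 13139390) was at 9.79 FPKM in OA and 265 FPKM in control. The highest copy in OA, and the one with the smallest difference, was FBgn0255115 (scaffold 13981, 59 to 177), at 44.5 FPKM in OA and 253 FPKM in control. It held 29.8% of the whole 5S sum in OA, whereas the highest copy in control held 8.64% of the sum in control.

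The few OA values of 5S rRNA fell on a small number of levels. All 9 belong to annotations of 119 bases and they took 5 different values: 9.28 FPKM in 2 copies, 9.79 FPKM in 3 copies, 18.6 FPKM in 1 copy, 19.1 FPKM in 2 copies and 44.5 FPKM in 1 copy. In control, 7 of the 25 copies of this length that were above 0 were whole multiples, between 1 and 8, of the lowest value of 20.8 FPKM, with a tolerance of 0.001 multiples. The lowest level above 0 at this length was thus 9.28 FPKM in OA and 20.8 FPKM in control. In OA, 3 of the 9 values were whole multiples, up to 2, of the lowest value at the same tolerance. Repeated levels can appear where values rest on few fragments. How far the OA values rest on few fragments was not tested, because depth per entry is unknown. The order of the 5S copies in OA, the highest copy included, is therefore uncertain. The copies above 0 in OA had control levels between 117 and 292 FPKM with a median of 211 FPKM. The copies listed at 0 in OA but not in control had control levels between 20.0 and 365 FPKM with a median of 93.6 FPKM, a range that includes that of the copies above 0 in OA.

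The 5S copies lay in tandem. On scaffold 1 the file lists 15 copies between 13129310 and 13147319, and 15 more lie on 5 other scaffolds. Of the 24 distances between the starts of neighbouring copies, 20 were between 358 and 374 bases with a median of 366 bases, and the other 4 were between 1680 and 8870 bases. On scaffold 1 the longer gaps divide the cluster into 4 blocks. The first block of 2 copies had no copy above 0 in OA, with a sum of 327 FPKM in control. The second block, of 4 copies, summed to 9.79 FPKM in OA and 855 FPKM in control, and the third, of 6 copies, to 38.2 FPKM in OA and 559 FPKM in control. The last block of 3 copies again had none above 0 in OA, with 258 FPKM in control.

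The low level in OA was therefore seen along the whole cluster. On scaffold 1 the 5S copies summed to 48.0 FPKM in OA and 1999 FPKM in control. On the short scaffolds they summed to 101 FPKM in OA and 2227 FPKM in control. Scaffold 3165 with 5 copies and scaffold 7612 with 3 copies had none above 0 in OA, with control sums of 658 and 249.6 FPKM. The 2 copies on scaffold 13981 summed to 53.8 FPKM in OA and 443 FPKM in control, the 3 on scaffold 12378 to 37.6 FPKM in OA and 418 FPKM in control, and the 2 on scaffold 12544 to 9.79 FPKM in OA and 459 FPKM in control.

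**Figure D3:**
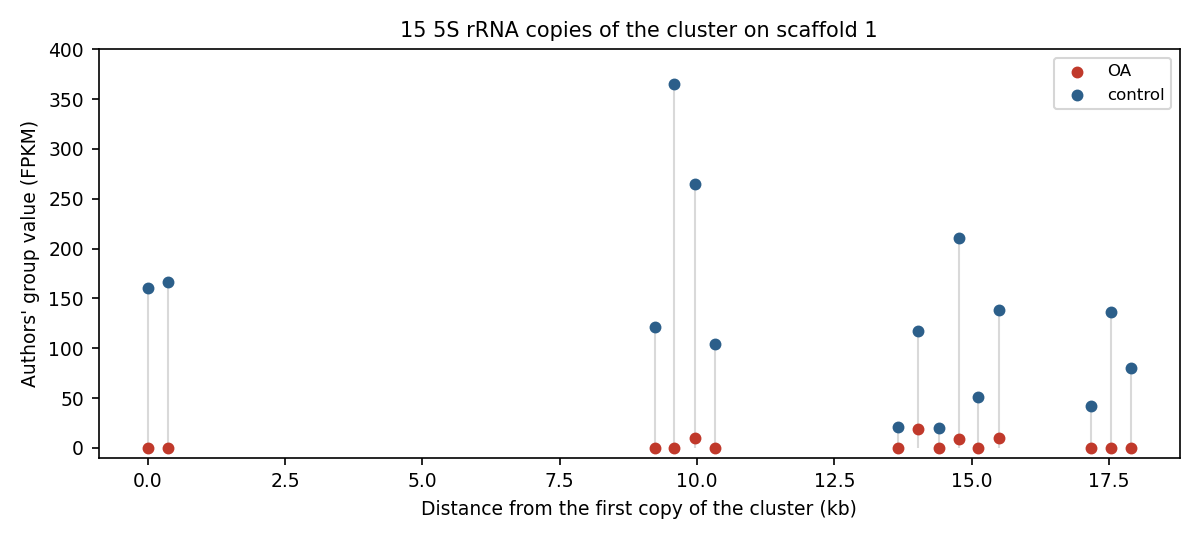
Group values in FPKM of the 15 5S copies on scaffold 1 against the distance from the first copy in kb, OA in red and control in blue. The copies form 4 blocks, control values lie between 20.0 and 365 FPKM, and 4 of the 15 copies are above 0 in OA.

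The scaffolds that carry rRNA carry little else. The 139 copies lie on 113 scaffolds, and outside scaffold 1 the file lists 1 entry of another kind on them, a tRNA gene on scaffold 7612 that was listed at 0 in both groups. Scaffold 204 is the only one with copies of 2 rRNA classes. There a full-length 5.8S copy, FBgn0255119 (12190 to 12368), lies 691 bases from the 18S copy 18SrRNA:GM27729. This 5.8S copy was at 75.9 FPKM in OA and 1419 FPKM in control, or 5.35% of control, while its 18S neighbour was at 10.4% of control. The values of these 2 entries thus followed the difference between the classes. Copies of a class can share reads, so this pair is not an observation apart from the class sums.

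Other classes of RNA that mostly lack a long poly(A) tail were set beside the rRNA classes. The 2 entries of the signal recognition particle RNA, the RNA of the complex that targets secreted proteins to the endoplasmic reticulum, summed to 9045 FPKM in OA and 48710 FPKM in control, or 18.6% of control. The 30 snRNA entries, RNAs of the spliceosome, summed to 19.9% of control, and 24 of the 27 with a mean of at least 1 FPKM were at least 2-fold lower. The snoRNA entries, which guide the modification of rRNA, moved in both directions, with 93 of 159 at least 2-fold lower and 30 at least 2-fold higher and a median log2 change of -1.45. Their sum in OA was 93.5% of control, but most of it in each group was 1 entry, as the highest entry of the class was at 53708 FPKM in OA and 38627 FPKM in control. RF00009, the nuclear RNase P RNA, added after its values were seen, was at 110 FPKM in OA and 814 FPKM in control, or 13.5% of control. Other classes were higher in sum in OA or closer to control. The tRNA entries summed to 685% of control and the miRNA entries to 166%, with 3 and 8 entries at a mean of at least 1 FPKM. Of the tRNA entries, 2 were above 0 in OA, 1 in control and 0 in both groups, so their sums compare different entries. Of the miRNA entries, 2 were above 0 in both groups. The 103 histone entries summed to 70.6% of control, and 7 of them were at least 2-fold lower. Each rRNA sum was a smaller share of its control level than any of these. The part of these RNAs in the difference of rRNA was not tested. Whether the groups differed in how much RNA without a long tail passed poly(A) selection was also not tested.

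**Figure D4:**
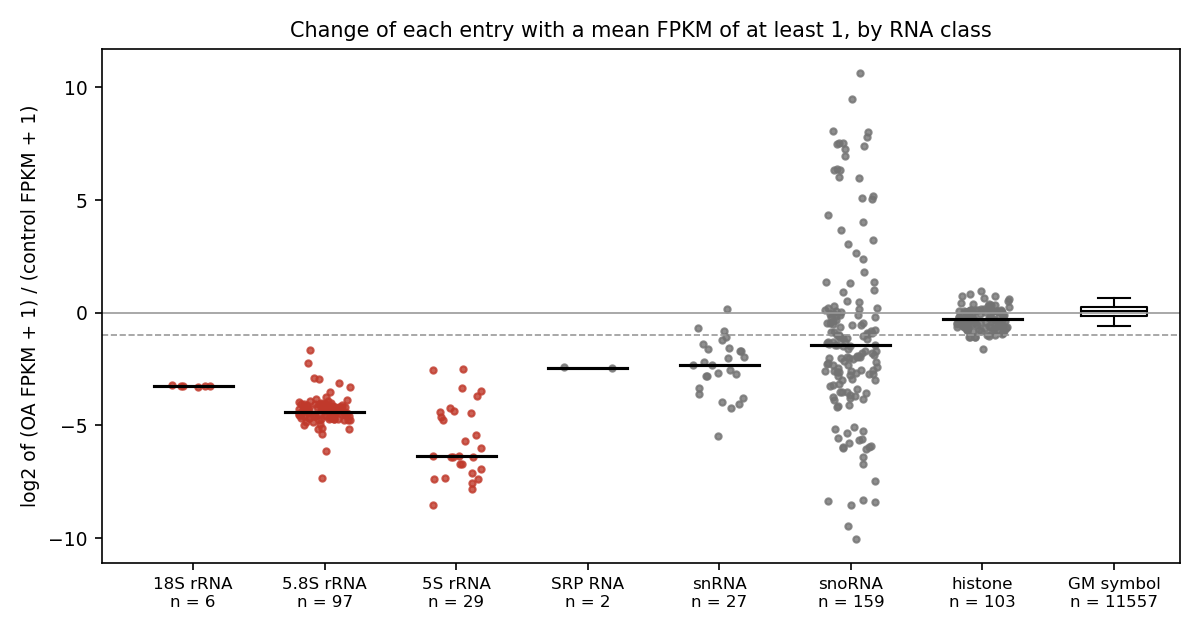
Log2 of OA FPKM + 1 over control FPKM + 1 for each entry with a mean of at least 1 FPKM, by RNA class, with the median as a black line and a dashed line at the 2-fold bound. Entries with a GM symbol are drawn as a box from the first to the last quartile with whiskers at the percentiles 5 and 95. The medians of 18S and 5.8S rRNA are -3.26 and -4.39, while the median of the 11557 GM entries is 0.06.

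Genes of ribosomal proteins lay closer to their control levels. The file names only 3 genes of ribosomal proteins, all of the small subunit, and none of them was at least 2-fold lower or higher. RpS18 was at 4644 FPKM in OA and 5000 FPKM in control. RpS21 was at 8799 FPKM in OA and 9159 FPKM in control. RpS3A was at 3723 FPKM in OA and 4632 FPKM in control. These values are 92.9%, 96.1% and 80.4% of control. Under their own names the file has 0 genes of mitochondrial ribosomal proteins, RNA polymerase I or III, or the proteins of snoRNA particles.

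Entries with a genomic span like that of the 18S copies were near even between the groups. The span of an entry can be longer than its transcript, so transcripts of equal length were not compared. The 166 other entries spanning 1927 to 1997 bases with a mean of at least 1 FPKM had a median log2 change of 0.04. Of these, 7 were at least 2-fold lower. Of 8 other entries spanning 180 bases with such a mean, 1 was at least 2-fold lower. The file has no other entry with values in the range of 5S lengths. Over all entries outside the 3 rRNA classes, 3.20% were at least 2-fold lower. As a check of the labels, the yolk protein gene Yp2, a marker of adult females, was at 15455 FPKM in OA and 11392 FPKM in control.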

How the data were processed

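RNA from 3 OA and 3 control libraries was prepared by poly(A) selection and sequenced by the study as single-end reads of 50 nt. The authors used Bowtie2 to map reads to an Ensembl genome of *D. sechellia*. They then quantified annotation release 34 by Cuffdiff, with geometric normalization and with corrections for length and sequence bias. Tool versions were not given in the sources used here. The deposited FPKM values, 1 per entry and group, combine the 3 libraries of a group. Reads that match several rRNA copies equally well were placed by the mapper, so values of single copies are uncertain and sums are safer. Depth per entry is unknown. The table also holds the authors' own fold changes, test statistics, p-values and q-values, which were not used. Other columns with values per library: 0.

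From the group values, sums, shares, medians and log2 of OA FPKM + 1 over control FPKM + 1 were computed, the last for entries with a mean of at least 1 FPKM, with Python 3.11.15, NumPy 2.4.6, pandas 2.3.3 and Matplotlib 3.10.9. The fold and sum steps were checked on the control values, with a randomly chosen set of entries divided by a known fold. This check did not cover how shared reads are placed. A fold of at least 2 was counted and no test was run, because each group has a single value. Named were all 18S copies and, for 5.8S and 5S, the 3 highest in control, the highest in OA, the copies with the largest and smallest fall and any at least 2-fold higher in OA, of which there were 0. Copies named beyond this are marked as singled out or stand for a scaffold or length. The members and lists were chosen with earlier results of these data known. Starts in the file are counted from 0, since 66.4% of 5796 GM entries under 1000 bases span whole codons when read so and 17.2% otherwise, and positions are printed counted from 1. Sequences are not printed, because the reference used here holds gene names only. Alternatives covered the pseudocount, the filter, the scaling, the copies summed and the fold.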

Additional observations from a re-analysis of the deposited data

How the results depend on the processing

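No paired analysis was possible because only group values were deposited, and for the same reason no library could be left out. Every alternative kept rRNA lower in OA. All 18 alternative counts of lower copies stayed within 1.5 times the reported count of copies at least 2-fold lower. These alternatives include the counts with a bound of 4-fold in place of 2-fold. With both groups rescaled to the same total FPKM, log2 of OA over control for the sums became -3.11 for 18S, -4.14 for 5.8S and -4.68 for 5S, and the median per copy became -3.11 for 18S and -4.24 for 5.8S. Centred on the median of GM entries, the sums became -3.32, -4.35 and -4.89 and the medians became -3.32, -4.45 and -6.41 in the same order of classes. For 5.8S the sum became -4.34 with FPKM multiplied by length, -4.28 without the copy highest in control and -4.40 with only copies of 179 or 180 bases, the last chosen after seeing the data, and the median became -4.42 with a pseudocount of 0.1. For 5S the sum became -4.69 without the copy highest in control, -4.81 with only copies of status OK and -3.66 with only the 9 copies above 0 in both groups, a choice made after seeing the data that by its construction leaves out copies at 0 in OA. The median per 5S copy of -6.35 rests on these zeros and was set by the pseudocount: it became -9.65 with 0.1, -6.37 with only copies of status OK and -3.69 with only copies above 0 in both groups. Without values per library, the unknown spread between the libraries of a group limits every comparison.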
